A study of Mus musculus with 8 samples.

Results

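The genes of homologous recombination and of the Fanconi anemia pathway were examined as a module in hematopoietic stem cells (HSCs) with and without Mitol. The module was defined as a list of 42 gene symbols taken by name from the deposited count table. All 42 were listed among the 22065 named genes, and all 42 were among the 16444 genes that passed the expression filter. The RNA-seq data hold 8 libraries, 4 Mitol KO and 4 Control, each made from 100 HSCs sorted from bone marrow as CD150+ CD48- EPCR+ Lineage- cells. The paper's definition of long-term HSCs also requires c-Kit (CD117), the product of Kit. Mitol KO HSCs came from Mitol Flox/Flox; MX1-cre+ mice and Control HSCs from Mitol Flox/Flox mice without cre. All were C57BL/6 animals of 8 to 10 weeks, and both groups carried the floxed alleles and received Poly:IC, with sampling 1 week later. MX1-cre is switched on by the interferon response to Poly:IC and recombines in many cell types, so deletion was not limited to HSCs. The labels do not say that the libraries of a group came from separate animals, and p-values measure the spread between these libraries, which may be technical.

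Homologous recombination repairs a broken chromosome by copying an intact sister. The ends are trimmed to single strands, RPA coats these strands, and BRCA1, PALB2 and BRCA2 act in replacing RPA so that the strand can search for and invade the matching sequence, with help from the RAD54 proteins. The Fanconi core complex, together with the E2 enzyme UBE2T, attaches ubiquitin to FANCD2 and FANCI at crosslinked DNA, after which nucleases unhook the crosslink and recombination restores the fork. Inherited loss of Fanconi genes causes bone marrow failure in humans, and many genes of both pathways are transcribed most strongly in cells that replicate their DNA.

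Counts on named genes summed to between 7214935 and 12398138 per library. Of 12 HSC genes, including those of the sort gate, all were detected, and 4 of them, Kit, Hlf and Gata2 included, fell in Mitol KO HSCs. Summed normalized counts of the 12 were 29125 to 33106 against 42492 to 49410 in Control. The list was mixed, since edgeR called 0 higher but DESeq2 called 2 higher. By edgeR, Slamf1 was at 0.56 on the log2 scale (adjusted p = 0.0501, 4 of 4 libraries above every Control library) and Ly6a at 0.76 (adjusted p = 0.0605, 3 of 4). Cd48, which the gate excludes, had 22.2 to 63.4 normalized counts in Mitol KO and 4.49 to 21.7 in Control libraries, and was higher in Mitol KO (edgeR adjusted p = 0.0450, log2 fold change 1.72, 4 of 4 libraries above every Control library). Lists for other lineages held 10 neutrophil, 8 B cell, 7 T cell, 8 mast cell and basophil, and 8 macrophage and dendritic genes. Of these, 2, 1, 2, 1 and 5 were tested, and the others were absent or failed the expression filter. Of the 11 tested, 0 passed the threshold by edgeR or limma-voom and 1 had an unadjusted p under 0.05 by edgeR. DESeq2 called 1 neutrophil gene higher and 1 lower. All 5 macrophage and dendritic genes had log2 fold changes above 0 (median 0.38), while the B cell and mast cell genes tested were below 0. Of 5 tested erythroid genes all 5 had a log2 fold change above 0, and 4 had an unadjusted p under 0.05 by edgeR. Hbb-bt passed the edgeR threshold as higher, while DESeq2 called 0. The 8 erythroid genes listed, tested or not, summed to 1065 to 3477 normalized counts in Mitol KO and 465 to 892 in Control libraries. The highest sum was in Mitol KO replicate 3, where Hbb-bs had 1048, against 3.91 to 19.7 in the other Mitol KO libraries. Of 4 tested megakaryocyte genes Pf4 was lower. The part of these cell markers in the results that follow was not tested. In a bulk sample, fewer cells of a type and less RNA per cell cannot be told apart. The targeted gene itself, Marchf5, had 232 to 308 normalized counts in Mitol KO and 262 to 333 in Control libraries (log2 fold change -0.15, standard error 0.13), and since counts per gene do not separate the floxed exons from the rest, this value does not check the labels.

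Of the 42 genes, 9 were higher in Mitol KO HSCs and 0 were lower. In order of p-value these were Brca1, Fanca, Rpa1, Rbbp8, Topbp1, Rpa2, Bard1, Eme1 and Exo1. They include 2 genes each of end trimming, strand coating and the BRCA1 complex. The Fanconi core, checkpoint activation and crosslink cutting are represented by 1 gene each. They make up 21.4% of the 42 genes, where 4.68% of all 16444 genes tested were called higher, 3.75% lower and 8.43% in either direction (edgeR quasi-likelihood test, Benjamini-Hochberg adjusted p under 0.05). Their fold changes ran from 1.53 for Topbp1 to 2.33 for Brca1. The median log2 fold change of the 42 genes was 0.51, against -0.02 over all genes tested, and 36 of them (85.7%) were above 0, against 47.7% of all genes. At an unadjusted p under 0.05 by edgeR, 23 genes (54.8%) differed in either direction, against 26.4% of all genes in either direction. All 23 were higher and 0 were lower, and DESeq2 and limma-voom likewise called 0 lower. Over all genes edgeR called 770 higher and 616 lower, a split that upper-quartile normalization turned to 594 and 845, with 7 of the 42 genes still higher and 0 lower.

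**Figure D1:**
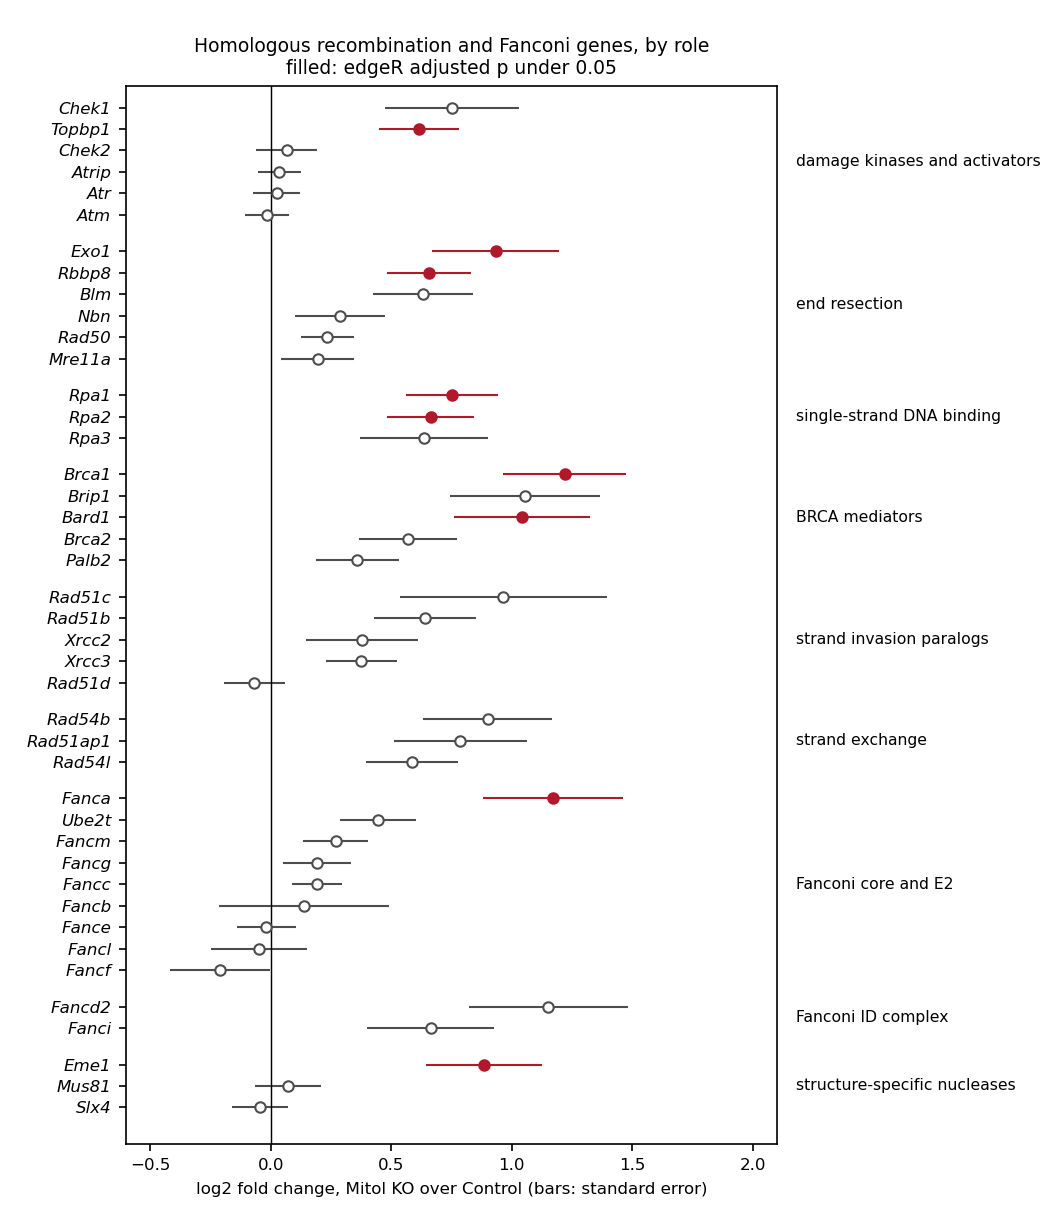
Log2 fold change of normalized expression, Mitol KO over Control, for the 42 genes grouped by role, with bars of 1 standard error from edgeR and filled red points for an adjusted p under 0.05. The 9 red points lie between 0.62 and 1.22, and genes of the same role lie at different distances from 0, from -0.21 for Fancf to 1.17 for Fanca within the Fanconi core.

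The differences rested unevenly on the libraries. Of the 42 genes, 3 (Brca1, Rbbp8 and Eme1) had every Mitol KO library above every Control library, which is 7.14% of them, against 8.17% of all genes tested, and 0 had every Mitol KO library below every Control library, against 7.18%, so complete separation was not more frequent here than in the background. The other 6 genes past the threshold had 3 of 4 Mitol KO libraries above every Control library. By the 2-sided exact permutation test on normalized counts, run on each of the 42 genes and not adjusted, Brca1, Rbbp8 and Eme1 gave p = 0.0286, the smallest that 70 arrangements of 4 against 4 can give. The same exact test gave p = 0.0571 for Bard1, Rpa1, Rpa2 and Topbp1 and p = 0.0857 for Fanca and Exo1.

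Among the genes that sense and signal damage, 1 of 6 passed the threshold. Topbp1, which activates the kinase ATR, had normalized counts of 3077, 3210, 2215 and 1912 in Mitol KO replicates 1 to 4 and of 1998, 1752, 1648 and 1311 in Control replicates 1 to 4. The first 3 Mitol KO libraries lay above every Control library and the fourth fell within the Control range. Topbp1 rose by a log2 fold change of 0.62 (standard error 0.17, edgeR adjusted p = 0.0416, 3 of 4 libraries). Chek1, the effector kinase below ATR, had 359, 347, 252 and 144 normalized counts in Mitol KO and 181, 167, 201 and 99.7 in Control libraries. Its largest values were again in Mitol KO replicates 1 and 2, and the log2 fold change of 0.75 (standard error 0.28) did not pass the threshold (edgeR adjusted p = 0.110). The kinases Atm and Atr, the ATR partner Atrip and the kinase Chek2 had log2 fold changes between -0.02 and 0.07, each smaller than its standard error of 0.09 to 0.13. The kinase ATR and its partner thus had log2 fold changes near 0 where its activator rose, a contrast that was not itself tested.

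End resection, the trimming of broken ends, had 2 of 6 genes past the threshold. Rbbp8, which encodes CtIP and starts the trimming with the MRE11 complex, had 380, 323, 271 and 218 normalized counts in Mitol KO and 179, 207, 200 and 161 in Control libraries. The groups did not overlap, and the log2 fold change was 0.66 (standard error 0.17, edgeR adjusted p = 0.0386, 4 of 4 libraries). Exo1, the nuclease that extends the trimming, had 718, 811, 492 and 304 normalized counts against 360, 346, 293 and 207 in Control. Its Mitol KO replicate 4 lay between Control libraries, and the log2 fold change was 0.93 (standard error 0.26, edgeR adjusted p = 0.0482, 3 of 4 libraries). The helicase gene Blm had 492, 512, 334 and 251 normalized counts against 302, 253, 241 and 218, and the log2 fold change of 0.63 (standard error 0.21) did not pass (edgeR adjusted p = 0.0754). Of the 3 subunits of the MRE11 complex, which bridges and first cuts the ends, 0 passed by edgeR, DESeq2 or limma-voom, and 0 had an unadjusted p under 0.05. Rad50, the most abundant of them in counts, had 798, 652, 636 and 603 normalized counts in Mitol KO and 619, 572, 550 and 518 in Control libraries, so the groups overlapped by a narrow margin. The log2 fold changes of Rad50, Mre11a and Nbn lay between 0.19 and 0.29, with adjusted p of 0.198, 0.444 and 0.350 (edgeR).

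All 3 subunits of RPA, the complex that coats single-stranded DNA, had similar log2 fold changes, of 0.64 to 0.75, and 2 of the 3 passed the threshold. Rpa1, the large subunit, had 1672, 1668, 1103 and 856 normalized counts in Mitol KO and 892, 834, 739 and 646 in Control libraries. Rpa2, the middle subunit, had 900, 1029, 674 and 528 normalized counts against 559, 484, 490 and 420. In both genes Mitol KO replicates 1 and 2 stood well above the other libraries and replicate 4 lay below the highest Control library. Rpa1 rose by 0.75 (standard error 0.19, edgeR adjusted p = 0.0346, 3 of 4 libraries) and Rpa2 by 0.66 (standard error 0.18, edgeR adjusted p = 0.0418, 3 of 4 libraries) on the log2 scale. Rpa3, the small subunit, had fewer reads, with 113, 154, 141 and 60.3 normalized counts against 81.8, 80.9, 66.9 and 68.2. Its Mitol KO replicate 4 was the lowest of all 8 libraries, and the log2 fold change of 0.64 (standard error 0.26) did not pass (edgeR adjusted p = 0.149).

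The BRCA genes, which prepare the trimmed strand for invasion, had the highest median log2 fold change of the 9 role groups, 1.04, and 2 of 5 genes passed. Brca1 had 1102, 914, 644 and 394 normalized counts in Mitol KO and 377, 366, 295 and 260 in Control libraries. Every Mitol KO library exceeded every Control library, though replicate 4 by a small margin. Brca1 rose by a log2 fold change of 1.22 (standard error 0.26, edgeR adjusted p = 0.0183, 4 of 4 libraries), the largest change and the lowest p-value among the 42 genes. On GRCm39, Brca1 lies on chromosome 11 from 101379577 to 101442781. Bard1, the obligate partner of BRCA1 in its ubiquitin ligase, had 891, 769, 446 and 280 normalized counts against 270, 337, 269 and 268. Mitol KO replicate 4 sat among the Control libraries, and Bard1 rose by 1.04 on the log2 scale (standard error 0.28, edgeR adjusted p = 0.0423, 3 of 4 libraries). Brip1, a helicase bound to BRCA1 that is also a Fanconi gene, had 386, 308, 183 and 107 normalized counts against 135, 109, 117 and 109. Its replicate 4 was the lowest of all libraries while replicate 1 was the highest, and the log2 fold change of 1.05 (standard error 0.31) did not pass (edgeR adjusted p = 0.0565). Brca2, which acts after BRCA1 in recombination, had 1075, 1030, 690 and 528 normalized counts against 617, 596, 579 and 422, and its log2 fold change of 0.57 (standard error 0.20) did not pass. As in Brca1, replicates 1 and 2 were the highest of the 8 libraries. Palb2, which joins BRCA1 to BRCA2, lay at 0.36 on the log2 scale (standard error 0.17, edgeR adjusted p = 0.205).

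**Figure D2:**
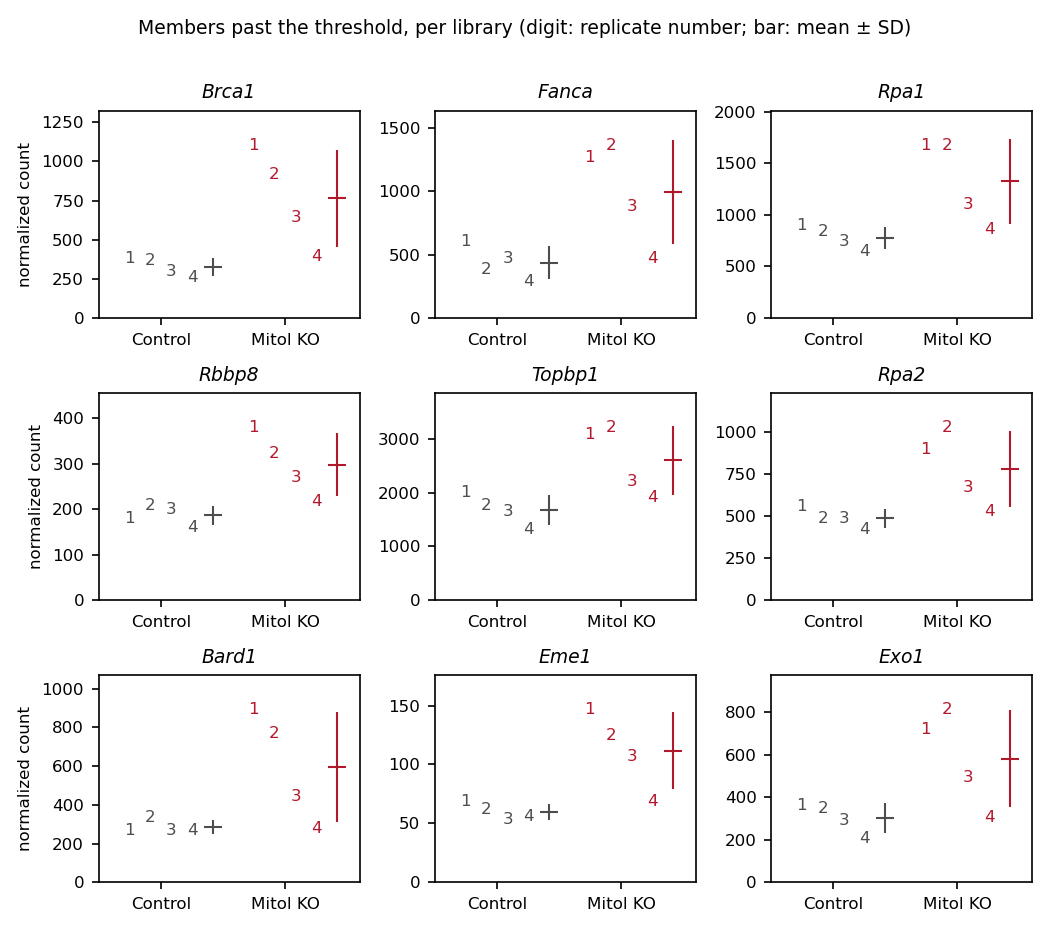
Normalized counts of the 9 genes past the threshold in each library (digits are replicate numbers, the cross bar and line beside them the mean and SD of the 4 libraries), on axes that start at 0. Mitol KO replicates 1 and 2 are the highest in all 9 panels, and Mitol KO replicate 4 is the lowest of its group in all 9.

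Of the 5 paralog genes Rad51b, Rad51c, Rad51d, Xrcc2 and Xrcc3, whose proteins act in strand invasion, 0 passed the threshold by edgeR, with 3 at an unadjusted p under 0.05 and 1 (Rad51b) called by DESeq2. Rad51d, the paralog with the most counts, had 557, 478, 392 and 445 normalized counts in Mitol KO and 467, 522, 528 and 421 in Control libraries. The groups lay over each other, and the log2 fold change was -0.07 (standard error 0.13). Rad51c had few reads, 35.2, 33.3, 29.3 and 14.8 normalized counts against 26.4, 10.6, 10.4 and 10.8. Its Control replicate 1 stood far from the other 3, and the log2 fold change of 0.96 (standard error 0.43) did not pass (edgeR adjusted p = 0.175). Rad51b (0.64, standard error 0.21), Xrcc2 (0.38, standard error 0.23) and Xrcc3 (0.38, standard error 0.15) lay between these on the log2 scale. Of the canonical Xrcc3 exons, 76.6% overlap Klc1 on the opposite strand, and since the kit does not mark strand, reads of such a pair cannot be told apart.

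Of the 3 genes grouped as acting in strand exchange, 0 passed by edgeR, while all 3 had an unadjusted p under 0.05 and were called by DESeq2. Rad54b, a translocase that helps strand exchange, had 409, 313, 256 and 141 normalized counts in Mitol KO and 137, 179, 161 and 116 in Control libraries. Rad54l, its paralog, had 790, 710, 500 and 386 normalized counts against 417, 431, 372 and 350. In both, Mitol KO replicates 1 to 3 lay above every Control library and replicate 4 within their range. On the log2 scale the differences were 0.90 for Rad54b (standard error 0.27, edgeR adjusted p = 0.0567), 0.59 for Rad54l (standard error 0.19, edgeR adjusted p = 0.0753) and 0.79 for Rad51ap1 (standard error 0.28, edgeR adjusted p = 0.0952), which stimulates the pairing of strands.

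In the Fanconi core complex and its E2 enzyme, 1 of 9 genes passed. Fanca, a core subunit, had 1266, 1359, 881 and 468 normalized counts in Mitol KO and 601, 384, 470 and 291 in Control libraries. Mitol KO replicate 4 fell below Control replicates 1 and 3. Fanca rose by a log2 fold change of 1.17 (standard error 0.29, edgeR adjusted p = 0.0314, 3 of 4 libraries). Of its canonical exons 43.7% overlap Zfp276 on the opposite strand, a gene with 48.7% as many counts as Fanca, whose own log2 fold change was 0.05 (standard error 0.13). Ube2t, the E2 enzyme, had 278, 284, 304 and 197 normalized counts against 183, 171, 208 and 207, and its log2 fold change of 0.45 (standard error 0.16) did not pass (edgeR adjusted p = 0.0977). Here replicate 3 was the highest Mitol KO library, and replicate 4 lay between the Control libraries. The other 7 core genes lay between -0.21 and 0.27 on the log2 scale, from Fancf (-0.21, standard error 0.21) through Fance (-0.02, standard error 0.12), Fancb (0.14, standard error 0.35), Fancc (0.19, standard error 0.10) and Fancg (0.19, standard error 0.14), which are subunits of the complex. The remaining 2 are Fancl, the ubiquitin ligase subunit (-0.05, standard error 0.20), and Fancm, the translocase that anchors the complex to DNA (0.27, standard error 0.14). The difference between Fanca and the other subunits was not tested.

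The ID complex, the substrate of the core, had log2 fold changes of 1.15 for Fancd2 (standard error 0.33) and 0.66 for Fanci (standard error 0.26), of which edgeR called 0 and DESeq2 called 1, Fancd2. Fancd2 had 627, 440, 287 and 196 normalized counts in Mitol KO and 93.6, 205, 165 and 220 in Control libraries. The Control libraries spread by a factor of 2.35 from lowest to highest, and Mitol KO replicate 4 lay below Control replicates 2 and 4. Fancd2 was the nearest to the threshold of those outside it (edgeR adjusted p = 0.0506), and Fanci was farther away (edgeR adjusted p = 0.131). The gene with the highest adjusted p inside the threshold was Exo1, so that Exo1 and Fancd2 lay close together on both sides of it.

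Of the 3 genes of structure-specific nucleases, which cut crosslinks and joined DNA molecules, 1 passed. Eme1, the regulatory subunit, had 146, 125, 107 and 68.8 normalized counts in Mitol KO and 68.6, 61.7, 53.7 and 55.7 in Control libraries. The lowest Mitol KO library lay just above the highest Control library, and Eme1 rose by a log2 fold change of 0.89 (standard error 0.24, edgeR adjusted p = 0.0425, 4 of 4 libraries). Mus81, the catalytic subunit that EME1 binds, had 256, 249, 250 and 249 normalized counts against 262, 211, 273 and 198, or 0.07 on the log2 scale (standard error 0.14). Slx4, the scaffold that holds these nucleases, had 701, 895, 782 and 782 normalized counts against 702, 912, 881 and 722, or -0.05 on the log2 scale (standard error 0.12). The Eme1 value carries a limit of counting, because 50.4% of its canonical exons overlap Lrrc59 on the opposite strand. Lrrc59 had 1640% of the counts of Eme1 and was itself higher in Mitol KO HSCs (log2 fold change 0.63, standard error 0.16, edgeR adjusted p = 0.0356). Eme1 lies on chromosome 11 from 94535822 to 94544812 of GRCm39. Fancl had 31.7% of its canonical exons under Vrk2 (111% of its counts) and 43.1% under 6820445E23Rik, both on the opposite strand, and Fancf had 28.4% under Gas2 (91.3% of its counts). Further opposite-strand shares were 27.2% for Rad54l (Lrrc41), 19.7% for Fancd2 (Fancd2os), 19.4% for Fanci (Polg), 14% for Rad51ap1 (Gm67039), 12.4% for Brca2 (N4bp2l1) and 9.43% for Rbbp8 (Gm50069).

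Levels per length placed the same genes in another order. Per kilobase of canonical transcript, mean normalized counts over the 8 libraries ran from 5.41 for Rad51c to 405 for Topbp1, with a median of 78.2. In Mitol KO and Control, Topbp1 had 493 and 317 normalized counts per kb and Rpa2 had 432 and 269. Brca1 (115 and 48.7 per kb) and its partner Bard1 (105 and 50.6 per kb) were at similar levels in each group. Brca2 was lower per length, at 61.9 and 41.3, and Fanca (153 and 67.2 per kb) was above Fancd2 (67.4 and 29.7 per kb). Atrip, at 260 and 250 per kb, was far above its partner Atr, at 82.2 and 79.8 per kb, and neither differed between the groups by more than its standard error.

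The promoters of 5 genes past the threshold are shown because these genes rose together, so that words known from promoters of cell cycle genes can be seen in them. They come from the RefSeq table on GRCm38.p6, which holds 34 of the 42 genes with 37 promoters. Each window runs from 250 bases before to 50 after the start given there. The GENCODE gene models used for positions begin farther upstream for Topbp1 (103182356) and Rpa1 (75239455). Most of both windows thus lies inside the GENCODE models, downstream of their first base. Each sequence below matched GRCm39, the build of the counts, at exactly 1 place. These are chr11:101442732-101443031 (- strand) for Brca1, chr8:124045266-124045565 (- strand) for Fanca, chr11:75239160-75239459 (- strand) for Rpa1, chr9:103182276-103182575 (+ strand) for Topbp1 and chr4:132495421-132495720 (+ strand) for Rpa2. Sequences run 5′ to 3′ on the gene's strand, and capitals mark a motif word on either strand, CCAAT or its reverse complement ATTGG in Brca1, Fanca, Rpa1 and Rpa2 and the reverse complement of TTTCGCGC in Topbp1.
Brca1: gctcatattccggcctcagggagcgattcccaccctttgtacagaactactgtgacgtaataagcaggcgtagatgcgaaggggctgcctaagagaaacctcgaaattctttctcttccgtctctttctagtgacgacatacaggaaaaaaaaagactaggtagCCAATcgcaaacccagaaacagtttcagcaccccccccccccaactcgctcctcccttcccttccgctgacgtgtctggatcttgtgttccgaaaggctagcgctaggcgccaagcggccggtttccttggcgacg
Fanca: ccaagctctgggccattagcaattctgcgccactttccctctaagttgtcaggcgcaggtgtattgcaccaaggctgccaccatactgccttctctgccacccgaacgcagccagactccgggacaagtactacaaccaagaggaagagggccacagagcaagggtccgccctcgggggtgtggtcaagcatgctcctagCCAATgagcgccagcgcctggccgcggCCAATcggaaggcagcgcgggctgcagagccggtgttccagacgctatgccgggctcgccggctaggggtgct
Rpa1: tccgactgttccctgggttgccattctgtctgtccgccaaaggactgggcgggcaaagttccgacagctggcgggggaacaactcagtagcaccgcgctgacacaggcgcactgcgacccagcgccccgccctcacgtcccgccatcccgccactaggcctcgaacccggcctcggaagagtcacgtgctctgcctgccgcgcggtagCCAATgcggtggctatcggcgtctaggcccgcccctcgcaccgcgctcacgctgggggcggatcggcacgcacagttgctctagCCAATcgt
Topbp1: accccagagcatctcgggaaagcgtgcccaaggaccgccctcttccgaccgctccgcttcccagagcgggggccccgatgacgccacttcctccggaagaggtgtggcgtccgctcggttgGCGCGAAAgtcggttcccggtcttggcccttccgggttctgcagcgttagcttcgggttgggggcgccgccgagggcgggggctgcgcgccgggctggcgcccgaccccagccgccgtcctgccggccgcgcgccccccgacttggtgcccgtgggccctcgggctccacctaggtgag
Rpa2: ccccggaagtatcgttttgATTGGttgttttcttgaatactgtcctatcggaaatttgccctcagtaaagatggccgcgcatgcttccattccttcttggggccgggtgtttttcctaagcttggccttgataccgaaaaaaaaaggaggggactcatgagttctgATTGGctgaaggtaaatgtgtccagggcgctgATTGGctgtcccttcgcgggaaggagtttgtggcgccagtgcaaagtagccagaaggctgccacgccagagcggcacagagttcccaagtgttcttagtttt

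The words searched, on both strands, were the E2F-type words TTTCCCGC, TTTGGCGC, TTTCGCGC and TTTGCCGC, the CHR word TTTGAA and the word CCAAT, none of which contains another. An E2F-type word stood in the promoters of 6 of the 34 genes (17.6%), against 4.63% of 10410 tested genes with a promoter in the table and 2.60% of all 27025 genes in it. CCAAT stood in 67.6% of the 34 genes, against 42.7% of tested genes. TTTGAA stood in 8.82%, against 14.7% of tested genes. Among the 7 genes past the threshold with a promoter in the table, an E2F-type word stood in 2, TTTGAA in 2 and CCAAT in 4. Positions are counted from the RefSeq start. In Brca1 the CCAAT word begins at -86, in Fanca at -50 and -23, in Rpa1 at -42 and 42, and in Rpa2 at -231, -84 and -52. In Topbp1 the E2F-type word begins at -129. The other genes with an E2F-type word were Bard1, which passed the threshold, and Chek2, Fancg, Brca2 and Rad51c, which did not and had log2 fold changes of 0.07, 0.19, 0.57 and 0.96. These shares are descriptions of letters in a window, without a test, and a match is not a binding site.

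Across libraries, the 42 genes followed a common order within the Mitol KO group, with replicate 4 the lowest by median and by sum in both groups. The median log2 ratio to the mean Control level was 0.67, 0.76, 0.31 and 0.01 in Mitol KO replicates 1 to 4 and 0.13, 0.06, 0.00 and -0.18 in Control replicates 1 to 4. Mitol KO replicate 4 was the lowest Mitol KO library in 33 of 42 genes and the highest in 0, and it lay above every Control library in 5 genes, against 31, 35 and 29 for replicates 1 to 3. Summed over the 42 genes, normalized counts were 25592, 25633, 19478 and 15932 in Mitol KO and 16762, 16318, 15865 and 13971 in Control libraries. The sum of Mitol KO replicate 4 thus lay below that of Control replicates 1 and 2. Within Control, medians and sums fell from replicate 1 to replicate 4. Control replicate 1 was the highest Control library in 18 of the 42 genes and Control replicate 4 the lowest in 23. The ratio of the highest to the lowest library had a median over the 42 genes of 1.85 in Mitol KO and 1.38 in Control, while over all genes tested it was 1.46 and 1.44. It was wider in Mitol KO for 32 of the 42 genes, up to 3.61 for Brip1.

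Cell cycle markers moved with these genes. Of 30 markers of S phase and mitosis, 21 were higher in Mitol KO HSCs and 0 were lower, with a median log2 fold change of 1.10. The 21 became 11, 7, 8 and 10 without Mitol KO replicate 1, Mitol KO replicate 2, Control replicate 2 and Control replicate 4, and between 15 and 29 without any 1 of the other 4 libraries. Their median log2 ratio to the Control mean was 1.44, 1.53, 1.05 and 0.37 in Mitol KO replicates 1 to 4 and between -0.20 and 0.12 in the Control libraries. Their summed normalized counts were 24897 to 53201 in Mitol KO and 16297 to 24184 in Control libraries, and all 30 were in the table. Replicates 1 and 2 were the highest and replicate 4 the lowest for both lists. The part of the cell cycle in the values of the repair genes was not tested.

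**Figure D3:**
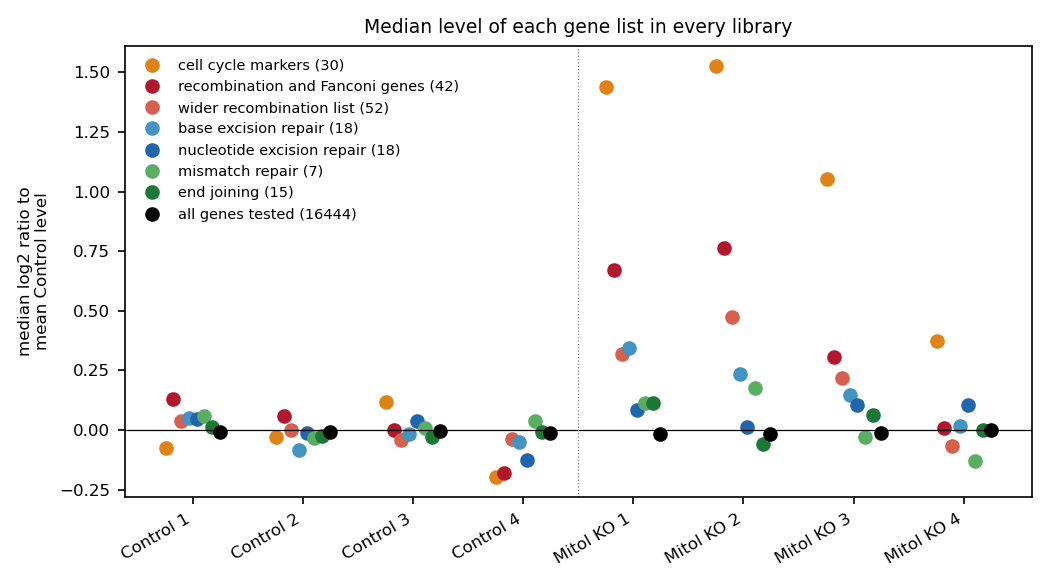
Median over each gene list of the log2 ratio of a library's normalized count to the mean Control count, for each of the 8 libraries, with the number of genes in parentheses. In Mitol KO replicates 1 to 4 the recombination and Fanconi genes (red) stand at 0.67, 0.76, 0.31 and 0.01 and the cell cycle markers (orange) at 1.44, 1.53, 1.05 and 0.37, while all genes tested (black) stay near 0.

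A wider list held 54 further symbols of recombination, Fanconi and replication stress genes, among them Wdr48 and Uaf1, which name the same gene. Of the 54 symbols 52 were tested, and 6 genes were higher and 1 lower, with a median log2 fold change of 0.30. Of the 52, 11.5% were called higher, against 4.68% of all genes tested, and 13.5% in either direction, against 8.43%. Among those higher were Hrob, which brings the MCM8 and MCM9 helicase to damage (1.79, standard error 0.31), Parpbp, which restrains recombination (1.57, standard error 0.31), Fignl1, an ATPase with a role in recombination (1.07, standard error 0.30), the checkpoint adaptor Clspn (1.04, standard error 0.28) and the resection nuclease Dna2 (0.97, standard error 0.22). Dna2 had 1110, 1121, 764 and 566 normalized counts in Mitol KO and 531, 505, 451 and 313 in Control libraries (edgeR adjusted p = 0.0220, 4 of 4 libraries). The lower gene was Rad52, an annealing protein, with 270, 280, 369 and 366 normalized counts against 408, 442, 441 and 540 (log2 fold change -0.53, standard error 0.15, edgeR adjusted p = 0.0442, 4 of 4 libraries). In both Dna2 and Rad52 the groups did not overlap, in opposite directions. Among the 52 genes, the groups did not overlap in 5 that were higher and 4 that were lower, beside 8.17% and 7.18% of all genes tested.

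Other repair pathways are given beside the 8.43% of all genes called in either direction. Of 15 end joining genes, 7 mismatch repair genes and 18 tested base excision repair genes, 0 passed the threshold by edgeR, and their median log2 fold changes were 0.10, 0.03 and 0.22. At an unadjusted p under 0.05 there were 2, 1 and 7 of them, beside 26.4% of all genes, and DESeq2 called 1 (Rif1), 0 and 1 (Parp1). Of 18 nucleotide excision repair genes 2 (11.1%) passed by edgeR. Ddb1, a damage sensor subunit, was higher (0.40, standard error 0.10) and Uvssa, a factor of transcription-coupled repair, was lower (-0.61, standard error 0.15). Of 18 tested p53 targets edgeR called 1 (5.56%) and DESeq2 called 2. Their median log2 fold change was 0.08, with 9 of the 18 above 0, so Cdkn1a did not stand for the list. The gene called by edgeR was Cdkn1a, the cell cycle inhibitor p21, with 323, 337, 429 and 385 normalized counts in Mitol KO against 113, 182, 43.3 and 33.2 in Control (log2 fold change 1.99, standard error 0.41, edgeR adjusted p = 0.0170, 4 of 4 libraries). Cdkn1a did not share the library order of the repair genes, since replicates 3 and 4 were its highest. The differences between these lists were not tested.

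**Figure D4:**
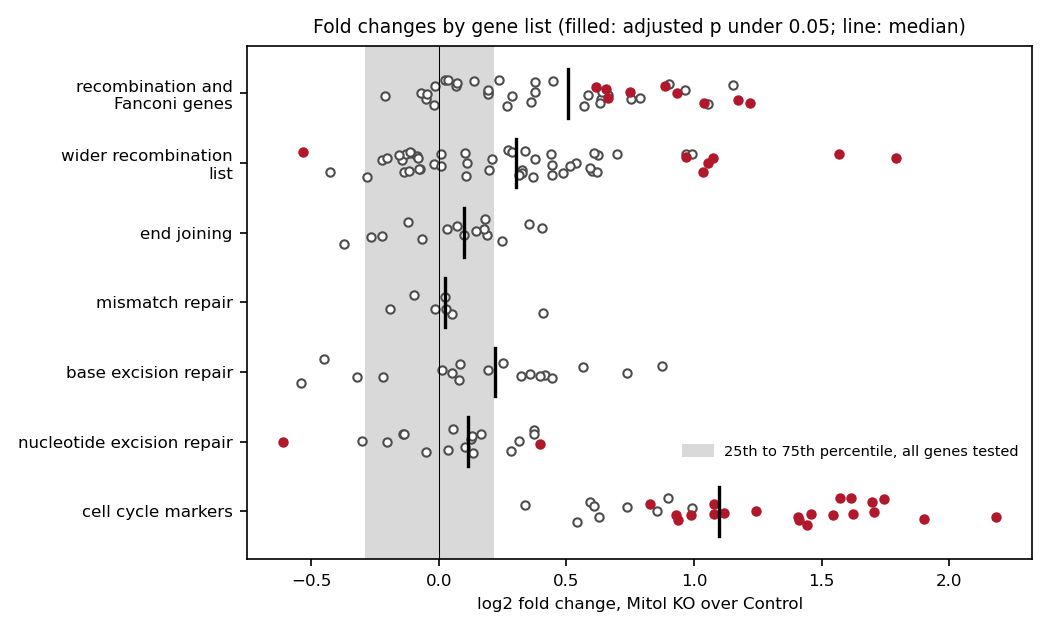
Log2 fold change, Mitol KO over Control, of every tested gene in 7 lists, filled red where the adjusted p was under 0.05, with a line at each list's median and a grey band from the 25th to the 75th percentile of all genes tested. The medians are 0.51 for the 42 recombination and Fanconi genes, 0.30 for the wider list and 1.10 for the cell cycle markers, and 0.03 to 0.22 for the other 4 repair lists.

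How many of the 42 genes passed the threshold depended on single libraries. Without Mitol KO replicate 4 there were 23, and without Mitol KO replicate 1, 2 or 3 there were 1, 0 and 1. Of all genes tested, the same fits called 14.8%, and 3.37%, 2.91% and 3.1%, in either direction. Without Control replicate 1, 2, 3 or 4 there were 5, 0, 1 and 0, beside 7.83%, 2.14%, 4.86% and 3.07% of all genes. The median log2 fold change of the module moved less, staying between 0.42 and 0.67 in these 8 fits. Over all genes, leaving out a library also changed the number of calls, to between 359 and 2501. DESeq2 on the 8 libraries called 18 of the 42 genes higher, 42.9%, against 8.19% of all genes. The limma-voom fit called 5 of the 42 genes, all higher, beside 735 higher and 638 lower among 16444 genes. Brca1 passed in 5 of the 8 fits that left out a library, with adjusted p between 0.00138 and 0.0565 (edgeR), while Rbbp8, Bard1, Eme1 and Exo1 passed only in the 1 without Mitol KO replicate 4.

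**Figure D5:**
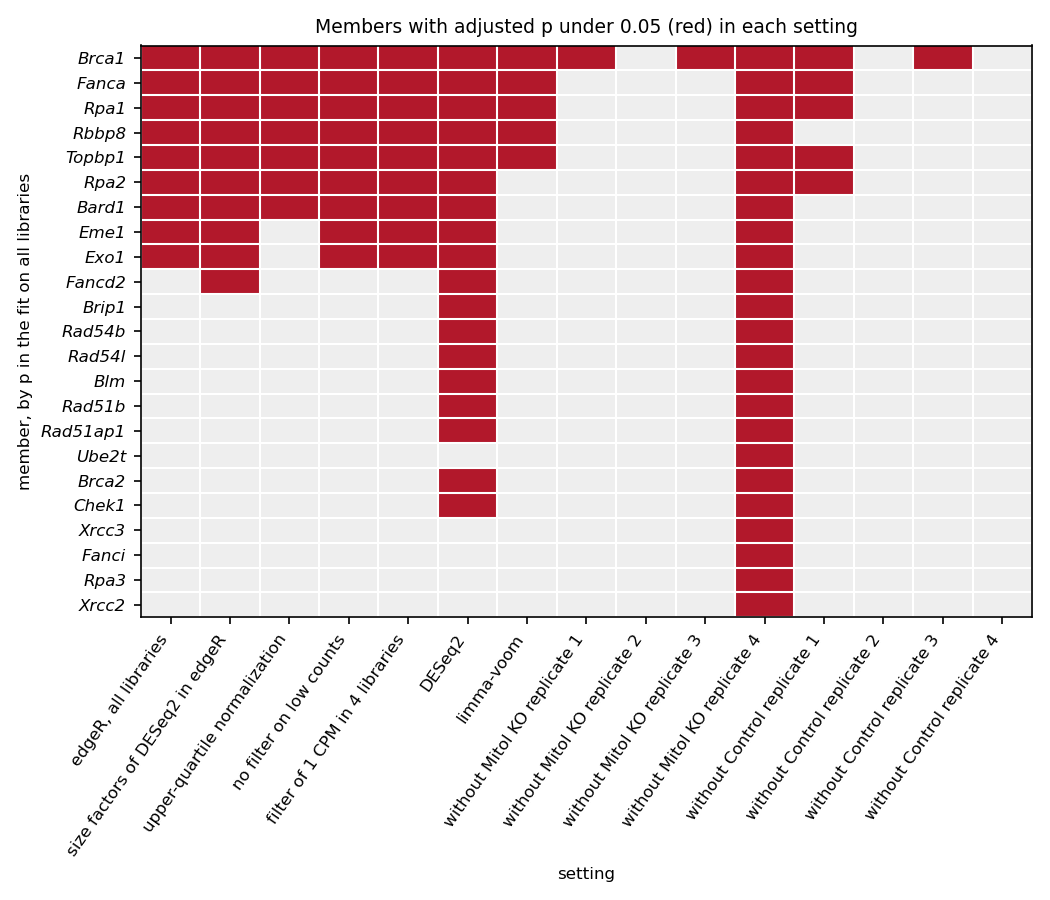
The 23 genes that had an adjusted p under 0.05 (red) in at least 1 of 15 settings, by increasing p in the edgeR fit on all 8 libraries, against the setting: normalization, filter, tool or library left out. The column without Mitol KO replicate 4 is red for all 23 genes, and the columns without Mitol KO replicate 2, Control replicate 2 or Control replicate 4 are red for 0.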

How the data were processed

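RNA-seq counts of 4 Mitol KO and 4 Control libraries were analysed. Per the labels and methods, Nextera XT libraries were read as 75 bp single ends, and the authors aligned the reads with STAR to mm39, merged alignments with samtools, used subread for counting and deposited raw counts per gene. The strand setting and annotation of the counting are not given in the sources used here. Of 23094 rows, 1029 had no gene name, with 0.335% to 0.467% of the counts in each library, and were left out. Library totals were 7214935 to 12398138, and as the reads carry no molecular identifiers they may repeat the same molecule.

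Differences were tested by edgeR (version 4.0.16, quasi-likelihood test) on 16444 genes, with TMM normalization, the default expression filter, group as the only term and Benjamini-Hochberg adjustment over all genes, at an adjusted p under 0.05. The authors used DESeq2. Here DESeq2 (version 1.42.0) was an alternative, with limma-voom (version 3.58.1), other normalizations and filters, a replicate block, thresholds of 0.1 and 0.01, and each library left out. Each count was divided by its library's DESeq2 size factor to give the normalized count. Positions and canonical transcripts came from GENCODE vM39 on GRCm39, where all 42 genes matched. Values per library are given for genes past the threshold and, per role, for the gene with the most counts and the gene with the largest change below the threshold. The members and lists were chosen with earlier results of these data known. Some genes of these lists are not reported here.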

Additional observations from a re-analysis of the deposited data

Results flagged for a closer look

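In 3 of 84 groups of 4 libraries (42 genes in 2 genotypes), 1 library stood apart from the other 3 by Dixon's criterion, which flags about 1 in 20 groups by chance. Bard1 had 337 normalized counts in Control replicate 2, where the other Control libraries had 268 to 270. Rad51c, a low gene, had 26.4 in Control replicate 1, where the others had 10.4 to 10.8. Fancg had 531 in Mitol KO replicate 2, where the others had 409 to 416.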

How the results depend on the processing

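Of the 42 genes, 9 were higher on all libraries by edgeR. This number was 18 by DESeq2, 5 by limma-voom, 17 at an adjusted p under 0.1, 0 at 0.01, and 0 to 23 with 1 library left out. All genes called were 2315 by DESeq2 (1350 higher, 965 lower) and 1373 (735 and 638) by limma-voom. They were 2585 (1395 and 1190) at 0.1, 166 (81 and 85) at 0.01, and 359 to 2501 (167 to 1482 and 192 to 1019) with 1 library left out. Upper-quartile normalization turned the split from 770 higher and 616 lower to 594 and 845 (41.3% higher against 55.6%), with 7 of the 42 genes higher. In the wider list, 6 higher became 11 by DESeq2, 3 by limma-voom, 10 at 0.1, 1 at 0.01, and 2 to 21 with 1 library left out. The 21 cell cycle markers called higher became 4 at 0.01. The cause was not tested.

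Replicate numbers are shared between the groups, and the labels do not say whether they pair the libraries. Deviations of same-numbered libraries had correlations of -0.07 to 0.08, against -0.13 to 0.10 for the other pairs. With 4 libraries a group, these values do not decide whether the numbers mark a pairing. With the replicate block, 15 of the 42 genes, 11 of the wider list and 1652 genes in all were called.

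Log2 fold changes near 0 changed sign. Without the filter and by DESeq2, Fance was at 0.0069 and 0.0023 and Atm at 0.0093 and 0.0038. Under upper-quartile normalization, Atr was at -0.039 and Atrip at -0.025. With 1 library left out, Rad51d ran from -0.16 to 0.024, Slx4 from -0.10 to 0.020, Fancb from -0.059 to 0.47, Fance from -0.085 to 0.052, Fancl from -0.15 to 0.061, Atm from -0.064 to 0.049, Atr from -0.024 to 0.11 and Mus81 from -0.0030 to 0.15. None of these passed the threshold in any setting. With 100 cells per library and 10 raw counts for the lowest gene in its lowest library, changes in low genes such as Rad51c are the least precise.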
